A study of Mus musculus with 8 samples.

Results

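Esr1, Esr2 and Star were followed through maps of 5-hydroxymethylcytosine made while mouse fibroblasts were turned into neurons. The 3 genes were found by their symbols in 10 lists of promoter regions and 6 lists of peaks. They held 19 of the 73904 listed promoter regions, which belonged to 15527 genes in all, and 42 of the 181581 peaks. Esr1 had 1 of the promoter regions, Esr2 had 5 and Star had 13. Esr1 was chosen by its gain of signal at 1 dpi, and Star by its loss of signal in several comparisons. These values therefore describe the genes and test nothing.

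The assay was hMeDIP-seq, in which an antibody captures DNA fragments that carry 5-hydroxymethylcytosine before they are sequenced. All cells came from ICR mice at passages 3-5. The groups were induced neurons at 1, 3, 5 and 7 dpi, all derived from fibroblasts and kept in neuronal medium, primary neurons from the hippocampus of pups aged 1 day, and mouse embryonic fibroblasts (MEFs) taken at E13.5. The labels do not spell out dpi and name no induction factor, and they call the primary neurons the positive and the MEFs the negative control. Each group was 1 library, and nothing says how many embryos, pups or cultures went into it. The 2 input libraries were not analysed here.

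The genes Esr1 and Esr2 encode the estrogen receptors alpha and beta, nuclear receptors that bind DNA and regulate genes when estrogen is bound. Star encodes the steroidogenic acute regulatory protein, which brings cholesterol into mitochondria, the step that limits how fast steroid hormones, estrogens among them, can be made. Neurons and glia of the hippocampus are known to use estrogen receptors and to make steroids locally. 5-Hydroxymethylcytosine arises when TET enzymes oxidise methylated cytosine, and in mammals it is abundant in neurons.

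The promoter sequences below, from RefSeq on GRCm38.p6 (the assembly of mm10, the build of the files), show how the listed regions sit relative to the annotated start of each receptor gene. For Esr1 the window is chr10:4611739-4612038 on the plus strand, with CG, the dinucleotide that carries most of this mark in mammals, in capitals. For Esr2 it is chr12:76177210-76177509 on the minus strand, and the capitals mark the 109 bases that lie inside the region listed at 5 dpi.
Esr1: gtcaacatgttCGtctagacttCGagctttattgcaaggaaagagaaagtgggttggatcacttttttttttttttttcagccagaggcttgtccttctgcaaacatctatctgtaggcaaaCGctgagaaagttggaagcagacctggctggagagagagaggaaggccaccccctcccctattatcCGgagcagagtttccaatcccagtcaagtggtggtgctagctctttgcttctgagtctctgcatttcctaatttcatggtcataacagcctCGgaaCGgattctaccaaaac
Esr2: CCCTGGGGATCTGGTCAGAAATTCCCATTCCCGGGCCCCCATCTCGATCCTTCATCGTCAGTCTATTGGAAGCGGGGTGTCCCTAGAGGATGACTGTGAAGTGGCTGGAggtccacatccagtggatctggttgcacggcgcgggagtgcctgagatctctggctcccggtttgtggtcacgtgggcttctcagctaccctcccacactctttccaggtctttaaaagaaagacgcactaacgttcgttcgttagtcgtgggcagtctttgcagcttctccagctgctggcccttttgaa
The Esr1 window held 6 CG dinucleotides and the Esr2 window 14, against a median of 7 over 32851 promoter windows of the same length. Of all windows, 56.4% held at least as many as Esr1 and 36.3% at least as many as Esr2. RefSeq gives Esr1 a further window, chr10:4709908-4710207, at a start far inside the gene, which is not printed and held 12 CG. The printed Esr1 window ends just before position 4612045, the start site of the deposited lists, from which distances are given here. Within the capitals of Esr2 lay 4 of its 14 CG. The region that gained reads at Esr1 began 1263 bp past the end of the printed window, so its own sequence is not shown. Both strands were searched for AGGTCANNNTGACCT, the palindrome bound by estrogen receptors, which overlaps its shorter form GGTCANNNTGACC, and for the nuclear receptor half-site AGGTCA, the GC box GGGCGG and the E-box CANNTG. The full palindrome occurred in 0.0213% of all windows, the shorter form in 0.0700%, the half-site in 16.3% and the GC box in 35.7%, and none of the 4 was found in any of the 3 windows. CANNTG occurred at 1 place in the printed Esr1 window, at 2 in the further one and at 2 in that of Esr2, and 72.3% of all windows held it.

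Each signal in the promoter lists is a whole number of reads scaled by a factor of its library, and the reads are given here. Folds include this scaling, under which 1 read of primary neurons weighed as much as 1.80 MEF reads, 1 read at 1 dpi as much as 1.78 and 1 read at the later days as much as 1.75. Where a library had 0 reads, the fold was computed with 3 reads in that library and is given as "at least". This refers to the reads observed and is no confidence limit. A count of 0 allows up to 3.69 reads, and the other library's count has its own error. The 95% intervals are exact but hold counting error alone, and with 1 library per group no difference has a replicate check. A region absent from a list has no value, so an unlisted region may have had any number of reads. Signal from fewer cells with the mark and from less of the mark per cell cannot be told apart. The peak lists held 262, 1238, 1100 and 1579 peaks from 1 to 7 dpi, and 549 for primary neurons, against 176853 for MEFs. Because the assay reads DNA and not RNA, expression of cell type markers could not be checked. Of 8 neuron marker genes, 1, 0, 0 and 0 were listed with more reads than MEFs on the 4 days, 0 were in primary neurons, and 2, 1, 1, 2 and 2 had fewer. Of 8 fibroblast markers the numbers were 1, 1, 2, 1 and 0 with more reads and 5, 5, 4, 5 and 5 with fewer, and of 5 astrocyte markers 0, 2, 1, 1 and 0 with more and 3, 2, 3, 3 and 3 with fewer. Of all RefSeq genes, 11.7, 10.9, 16.9, 7.44 and 7.43% were listed with more reads in these comparisons and 36.8, 34.3, 34.1, 34.3 and 34.8% with fewer. All 5 comparisons share the MEF library, so its reads enter each of them.

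Esr1 gained signal downstream of its start site at 1 dpi and was listed nowhere else. The region was chr10:4613301-4613680 in mm10, 1256 to 1635 bp downstream of the start site of Esr1 on the plus strand, inside the gene. The lists do not tell exons from introns. It held 52 reads at 1 dpi (38.8 to 68.2) and 0 reads in MEFs (up to 3.69), so it was at least 30.8-fold higher at 1 dpi. In the authors' deposited table its p-value and q-value at 1 dpi are both given as 0, for 1 library against 1 library. Across RefSeq genes, 11.7% had a region with more reads at 1 dpi than in MEFs, 6.26% had one at 1 dpi and in no other comparison, and 3.18% were in no other list of either direction, as Esr1 was. Nothing is read from these shares, because the 1 dpi gain chose the gene.

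As Esr1 was chosen for this gain, the place of its region in the list by reads is a description. Among 3415 regions with more reads at 1 dpi than in MEFs, 8 held more reads than the 52 of Esr1, and 99.7% held fewer. The list's median was 10 reads and its minimum 9. The nearest read numbers above and below were 57 and 46. Of the 3284 regions of that list with 0 MEF reads, Esr1 had the most reads. By fold, among the regions at or above the list's median read number, the neighbours of Esr1 were Speer7-ps1, with 36 reads at 1 dpi and 2 in MEFs (32.0-fold), and Heatr6, with 17 and 1 (30.2-fold). The fold of Esr1 is a lower bound and those of its neighbours are not.

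**Figure D1:**
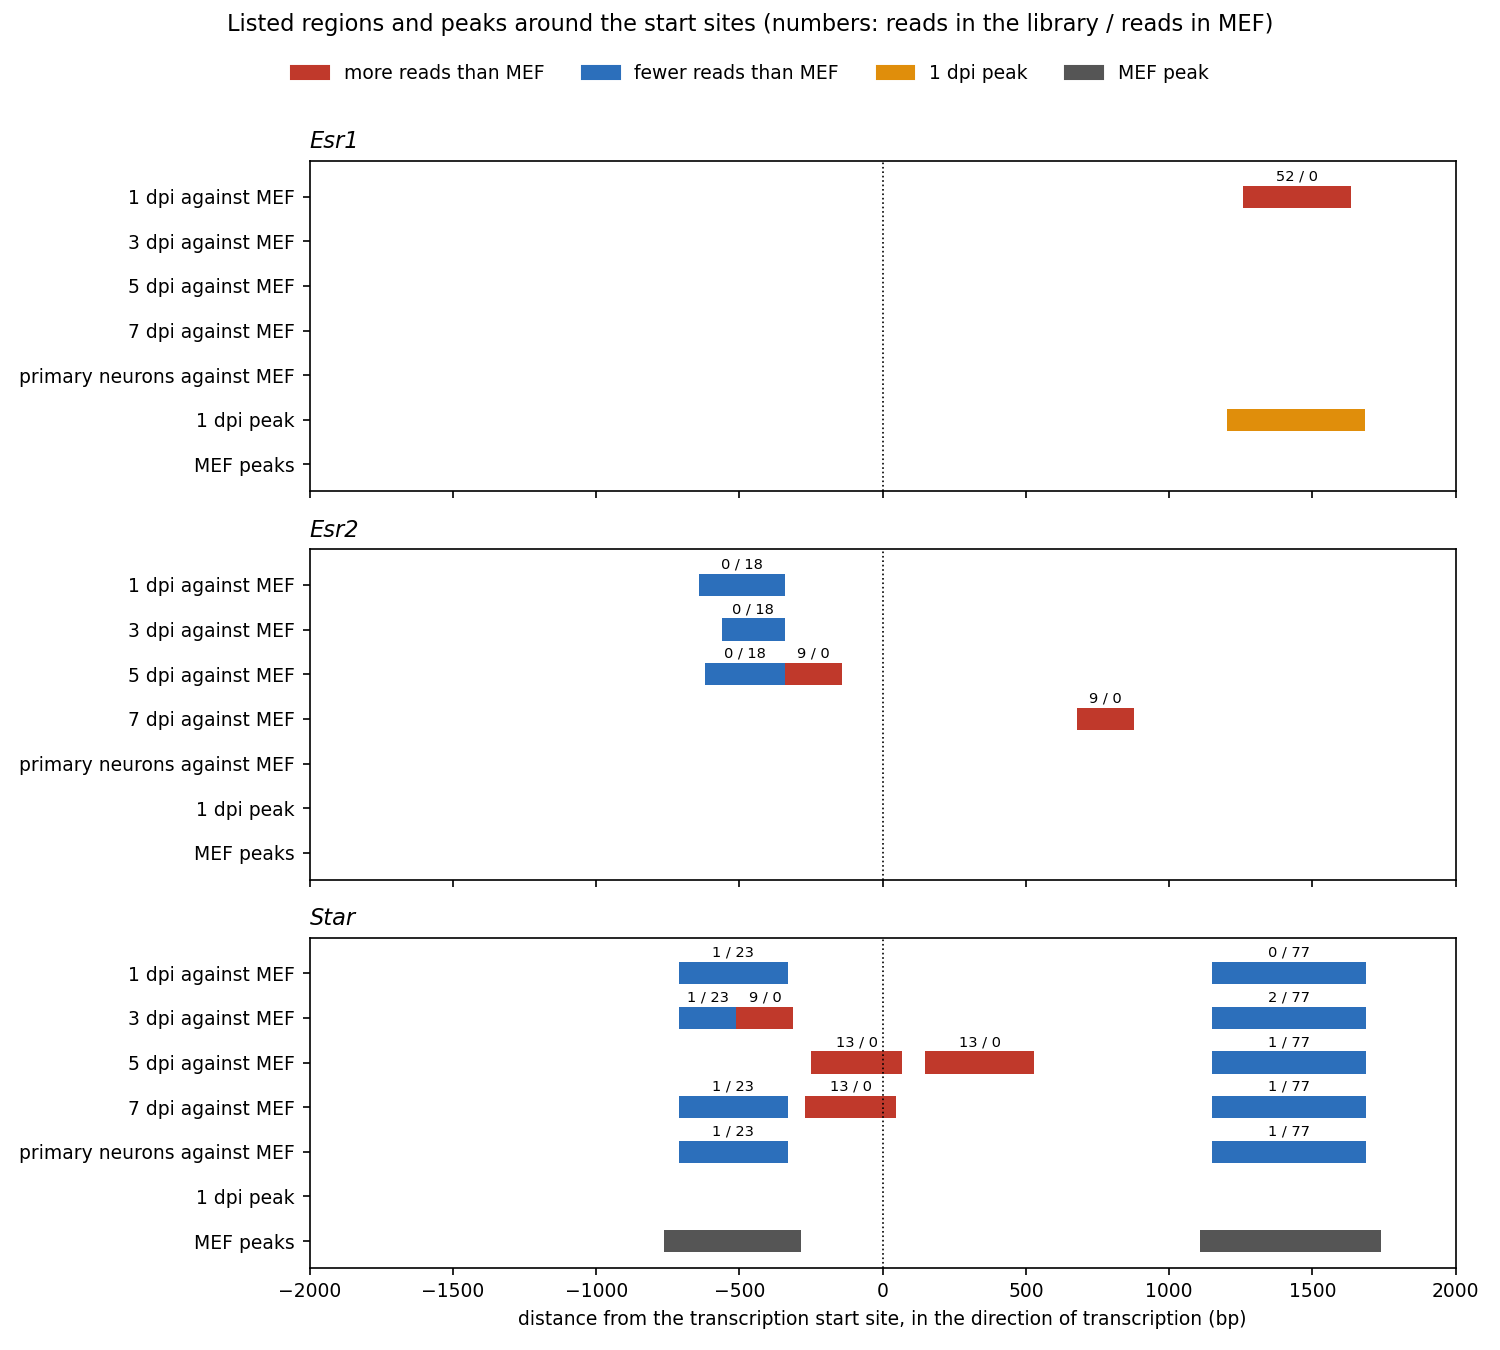
Listed regions within 2000 bp of the start sites of Esr1, Esr2 and Star, drawn along the direction of transcription (x axis, bp), with 1 row per library compared with MEF and rows for 1 dpi and MEF peaks. Numbers are reads in the named library, then in MEF: Esr1 has a single gain of 52 against 0 at 1 dpi, and the downstream region of Star has 0 to 2 reads against 77 in every row.

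A called peak lay over the same place. It was called from the same 1 dpi library as the gain that chose Esr1, so it is a description and no second measurement. In the 1 dpi peak list Esr1 had 1 peak, chr10:4613248-4613727, 480 bp long, with its summit 1345 bp downstream of the start site and 52 tags there. The authors gave it a fold enrichment of 6.07 and a −log10 q of 20.95. Genes with a peak classed as promoter made up 0.0114% of all genes at 1 dpi, which is 3 genes, the others being Abhd12 and Asmt, and genes with any peak made up 0.805%. Only 2 of the 3415 regions with more reads at 1 dpi lay on a 1 dpi peak, those of Abhd12 and Esr1. The peaks of MEFs nearest to that of Esr1 ended 5.10 kb upstream and began 24.7 kb downstream.

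Esr2 was listed with fewer reads than MEFs just upstream of its start site at 1, 3 and 5 dpi, and with more reads elsewhere at 5 and 7 dpi. The lost region began at position 76177601 of chromosome 12 in each case and ended at 76177900 at 1 dpi, 76177820 at 3 dpi and 76177880 at 5 dpi. Esr2 lies on the minus strand, so these regions were centred 491, 451 and 481 bp upstream of its start site. Each held 0 reads at 1, 3 and 5 dpi, against 18 reads in MEFs (10.7 to 28.4). It was at least 3.38-fold lower at 1 dpi and at least 3.43-fold lower at 3 and at 5 dpi. The 18 MEF reads are 1 measurement that enters all 3 comparisons. Genes with a region of fewer reads than MEFs made up 36.8% of all genes at 1 dpi, 34.3% at 3 dpi and 34.1% at 5 dpi, so the listing of Esr2 was a common call. No such region of Esr2 was listed at 7 dpi, where 34.3% of genes had one, or in primary neurons, where 34.8% did.

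The gains of Esr2 rested on few reads. At 5 dpi the region chr12:76177401-76177600, centred 241 bp upstream of the start site, held 9 reads (4.12 to 17.1) and MEFs 0, which put 5 dpi at least 5.25-fold higher. It directly adjoined the lost region of the same day, and its part nearest the gene is the capital stretch printed above. At 7 dpi another place, chr12:76176381-76176580, centred 779 bp downstream of the start site, also held 9 reads and MEFs 0, with the same fold. These gains did not overlap each other. The lowest read number in either list was 9, and 33.6% of the 5 dpi and 30.1% of the 7 dpi regions sat at it. Genes with a gain made up 16.9% at 5 dpi and 7.44% at 7 dpi. Genes with both a gain and a loss at 5 dpi, as in Esr2, made up 6.95%. In the authors' deposited table, the p-values of the Esr2 regions lay between 1.40e-05 and 4.85e-05 and the q-values between 0.000241 and 0.000573.

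Star was listed with fewer reads than MEFs in every comparison, at a place downstream of its start site. The region was chr8:25809661-25810200, 1149 to 1688 bp downstream of the start on the plus strand and inside the gene, with the same start and end in all 5 lists. It held 0 reads at 1 dpi, 2 at 3 dpi, 1 at 5 dpi, 1 at 7 dpi and 1 in primary neurons, against 77 reads in MEFs (60.8 to 96.2). A count of 0 allows up to 3.69 reads, of 1 up to 5.57 and of 2 up to 7.22, so the intervals of the 5 libraries overlapped each other and none reached that of MEFs. The region was at least 14.4-fold lower at 1 dpi. It was 22.0-fold lower at 3 dpi (5.89 to 185), 44.0-fold lower at 5 and at 7 dpi (7.67 to 1760) and 42.8-fold lower in primary neurons (7.45 to 1711). The smaller figure at 1 dpi comes from holding its 0 reads at 3 and does not mark a smaller loss.

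As Star was chosen for this loss, its place in the lists is a description. Genes with a loss in all 5 comparisons made up 24.7% of all genes, and genes with a loss of the same coordinates in all 5 made up 6.75%. By MEF reads the region ranked 56 of 12287 at 1 dpi, 46 of 11184 at 3 dpi, 42 of 11138 at 5 dpi, 48 of 11276 at 7 dpi and 47 of 11491 in primary neurons. By fold, in the same lists, it ranked 1210 at 1 dpi, where its 0 reads were held at 3, and 325 at 3 dpi. Its rank by fold was 3 at 5 dpi, 5 at 7 dpi and 3 in primary neurons. Next to Star in the order of folds, among regions at or above the median read number, stood 2310067B10Rik (50.9-fold lower) and Rab23 (41.1-fold lower) at 5 dpi. At 7 dpi these neighbours were Endou (46.3-fold) and Aph1c (42.3-fold), and in primary neurons 4930406D18Rik (45.6-fold) and Gm853 (42.2-fold). In the authors' deposited table the region has a p-value of 0 at 1, 5 and 7 dpi, of 2.55e-15 at 3 dpi and of 1.11e-16 in primary neurons.

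**Figure D2:**
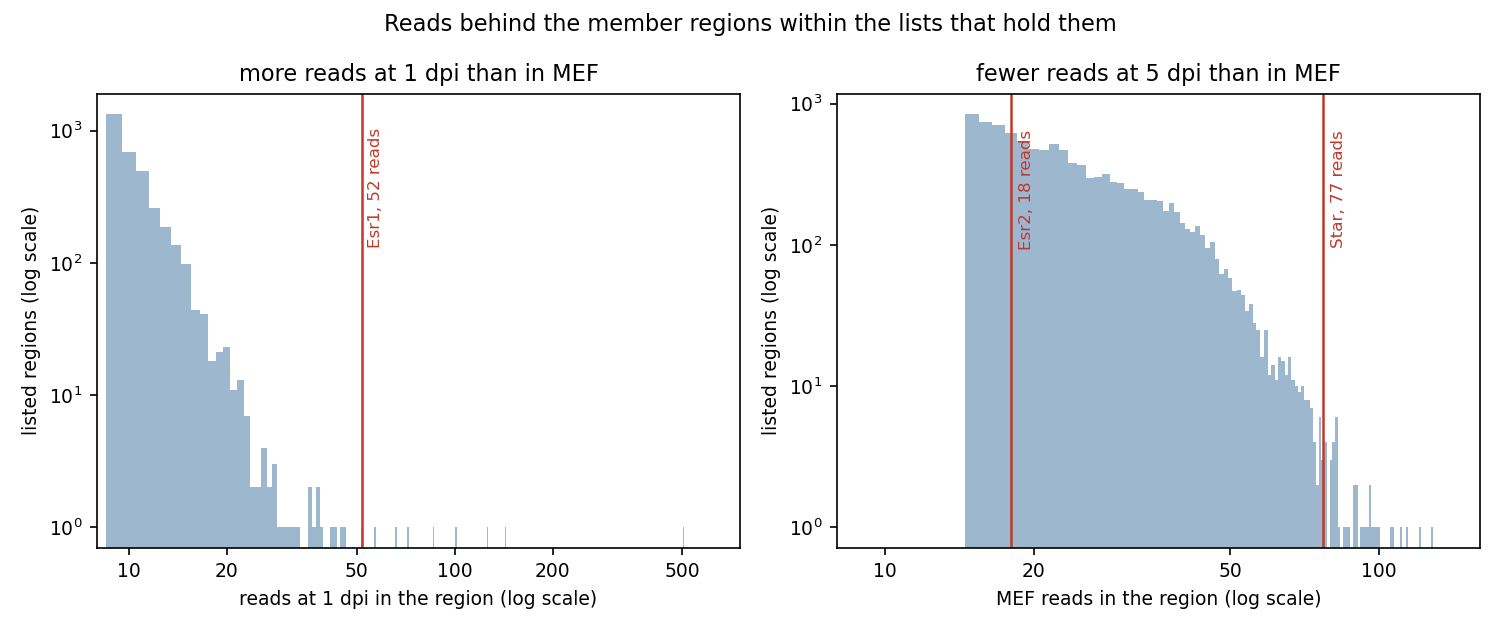
Number of listed regions (y axis, log scale) by the reads of the library with more reads (x axis, log scale), for the regions higher at 1 dpi than in MEF (left) and lower at 5 dpi than in MEF (right). Red lines mark Esr1 with 52 reads at 1 dpi, and Star with 77 and Esr2 with 18 MEF reads; Esr1 and Star lie in the sparse right-hand tails, and Esr2 lies among the commonest read numbers.

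A second loss of Star lay upstream of its start site. The region chr8:25807801-25808180, centred 522 bp upstream, was listed for primary neurons, 1 dpi and 7 dpi, and at 3 dpi a shorter one from the same start, chr8:25807801-25808000, was listed in its place. It held 1 read in each of these 4 libraries, against 23 in MEFs (14.6 to 34.5). This was 12.9-fold lower at 1 dpi (2.1 to 533), 13.1-fold lower at 3 and 7 dpi (2.13 to 541) and 12.8-fold lower in primary neurons (2.07 to 526). At 5 dpi it was not listed. In the authors' deposited table its p-values lay between 5.19e-05 and 6.32e-05.

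Between the lost regions, Star was listed with more reads than MEFs at 3, 5 and 7 dpi. At 3 dpi chr8:25808001-25808200, centred 412 bp upstream, held 9 reads and MEFs 0, which put 3 dpi at least 5.25-fold higher. The lowest read number in that list was 9, and 34.1% of its regions sat at it. At 5 dpi a region over the start site, chr8:25808261-25808580, and one downstream of it, chr8:25808661-25809040, each held 13 reads (6.92 to 22.2) and MEFs 0, which put 5 dpi at least 7.58-fold higher. At 7 dpi the region over the start site was listed again with nearly the same limits, chr8:25808241-25808560, and 13 reads, where MEFs again had 0, with the same fold. The start site itself lay inside the gained region at 5 and at 7 dpi. Read numbers of 13 were above 71.7% of the list at 5 dpi and 67.6% at 7 dpi. No gain of Star was listed at 1 dpi or in primary neurons, where 7.43% of genes had one, and at 3 dpi 10.9% of genes had one. Genes with both a gain and a loss made up 4.64% at 3 dpi, 6.95% at 5 dpi and 3.26% at 7 dpi, against 5.51% at 1 dpi and 3.36% in primary neurons.

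The 3 dpi gain of Star overlapped by 180 bp the region listed as lost in primary neurons and at 1 and 7 dpi. At 3 dpi the lost region was the shorter one and ended where the gain began, with the same 23 MEF reads as the longer one. The gained stretch lay whole inside a MEF peak with 23 summit tags, yet it was deposited with 0 MEF reads. It was the only one of 11 member regions on a peak whose reads differed from the tags at that peak's summit. Several of these regions shared a peak, so they are not separate checks. Over all lost regions on 1 MEF peak, reads equalled the summit tags in 63.6 to 64.2%, depending on the comparison. For gained regions on 1 peak of their own library the share was 50% at 1 dpi, over 2 regions, and 0 to 3.85% elsewhere. Differing numbers were therefore common.

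**Figure D3:**
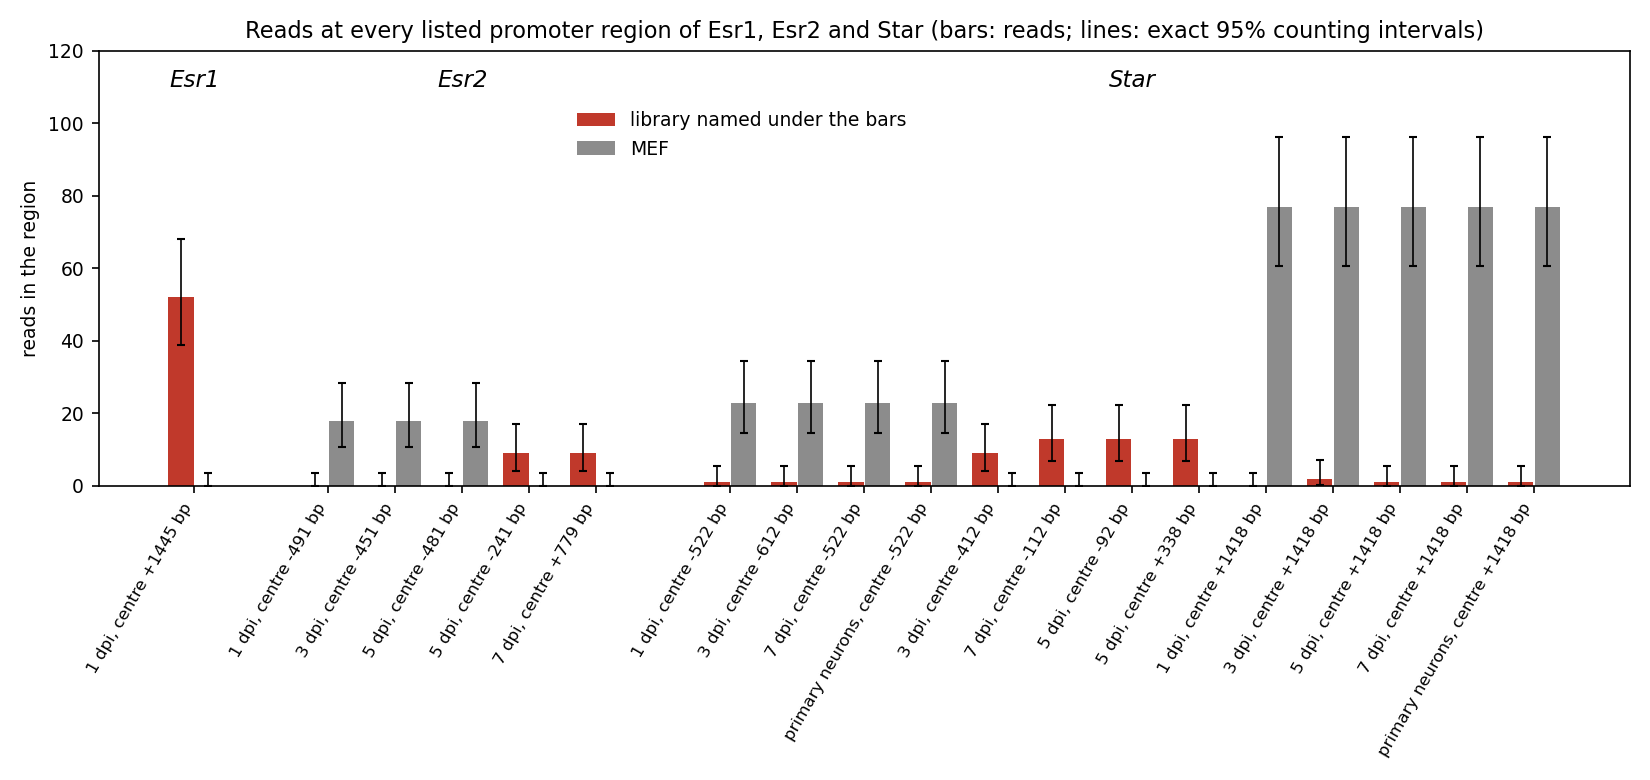
Reads (y axis) in each of the 19 listed regions of Esr1, Esr2 and Star, named below by library and distance of the centre from the start site. Red bars are the named library and grey bars MEF, with exact 95% counting intervals as lines; the 7 gains all have 0 MEF reads, and the bar of 52 reads for Esr1 is the tallest among them.

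All 7 gains of the 3 genes had 0 reads in MEFs. That held for 91.2 to 96.2% of gained regions in general, depending on the comparison, so the members were like the rest in this respect. The 12 losses had between 18 and 77 MEF reads and 0 to 2 reads in the other library. In 8 of the 12 at least 1 read was left.

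Peaks of the 3 genes came almost wholly from MEFs. None had a peak assigned at 3, 5 or 7 dpi or in primary neurons. A peak was assigned to 3.86, 3.41, 4.71 and 1.62% of all genes there, against 75.6% in MEFs, and peaks classed as promoter to 0.0801, 0.0801, 0.13 and 0.0229%. Esr1 had 25 MEF peaks, 18 in the gene body and 7 intergenic, between 45.3 kb upstream and 228 kb downstream of the start site. Their fold enrichment was 2.56 to 7.31, with a median of 4.66, and their summits held 22 to 57 tags. The Esr1 peak of 1 dpi, with 6.07, fell inside that range, but no MEF peak lay at the promoter. The peaks made up 0.382% of the list at 1 dpi and 0.0141% of the MEF list.

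Esr1 is a long gene of 393.6 kb. More MEF peaks were assigned to 5.65% of genes. Per length, its body held 4.57 peaks per 100 kb, against a median of 3.71 with quartiles of 2.19 and 5.35 over 943 genes of 0.5 to 2 times its length. The body of Esr1 thus lay between the quartiles.

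Esr2 had 13 MEF peaks, 4 in the gene body and 9 intergenic, and none of them met its lost promoter regions. Their fold enrichment was 2.46 to 8.95, with a median of 3.68, and the strongest, with 70 tags, lay 128 kb downstream of the start site. The nearest lay 6.68 kb upstream. All were 480 bp long, the minimum of the lists, as were 23 of the 25 of Esr1 and 86.7% of MEF peaks in general. Its body held 7.04 peaks per 100 kb, above the upper quartile of 6.51 over genes of similar length, of which 20.3% had a higher density.

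Star, at 7.51 kb the shortest of the 3 genes, had 3 MEF peaks, and 2 of them were at its promoter, where 19.8% of all genes had one. The peak over the main lost region, chr8:25809619-25810252, was 634 bp long with 77 tags and a fold enrichment of 9.83, higher than 98.8% of MEF peaks. That over the upstream loss, chr8:25807749-25808228, had 23 tags and a fold enrichment of 3.02, higher than 9.16% of MEF peaks. Both were called from the MEF library that enters those losses, so they are no second measurement. The third lay 4.36 kb upstream, with 46 tags and 5.92-fold enrichment. More MEF peaks were assigned to 41.4% of genes.

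**Figure D4:**
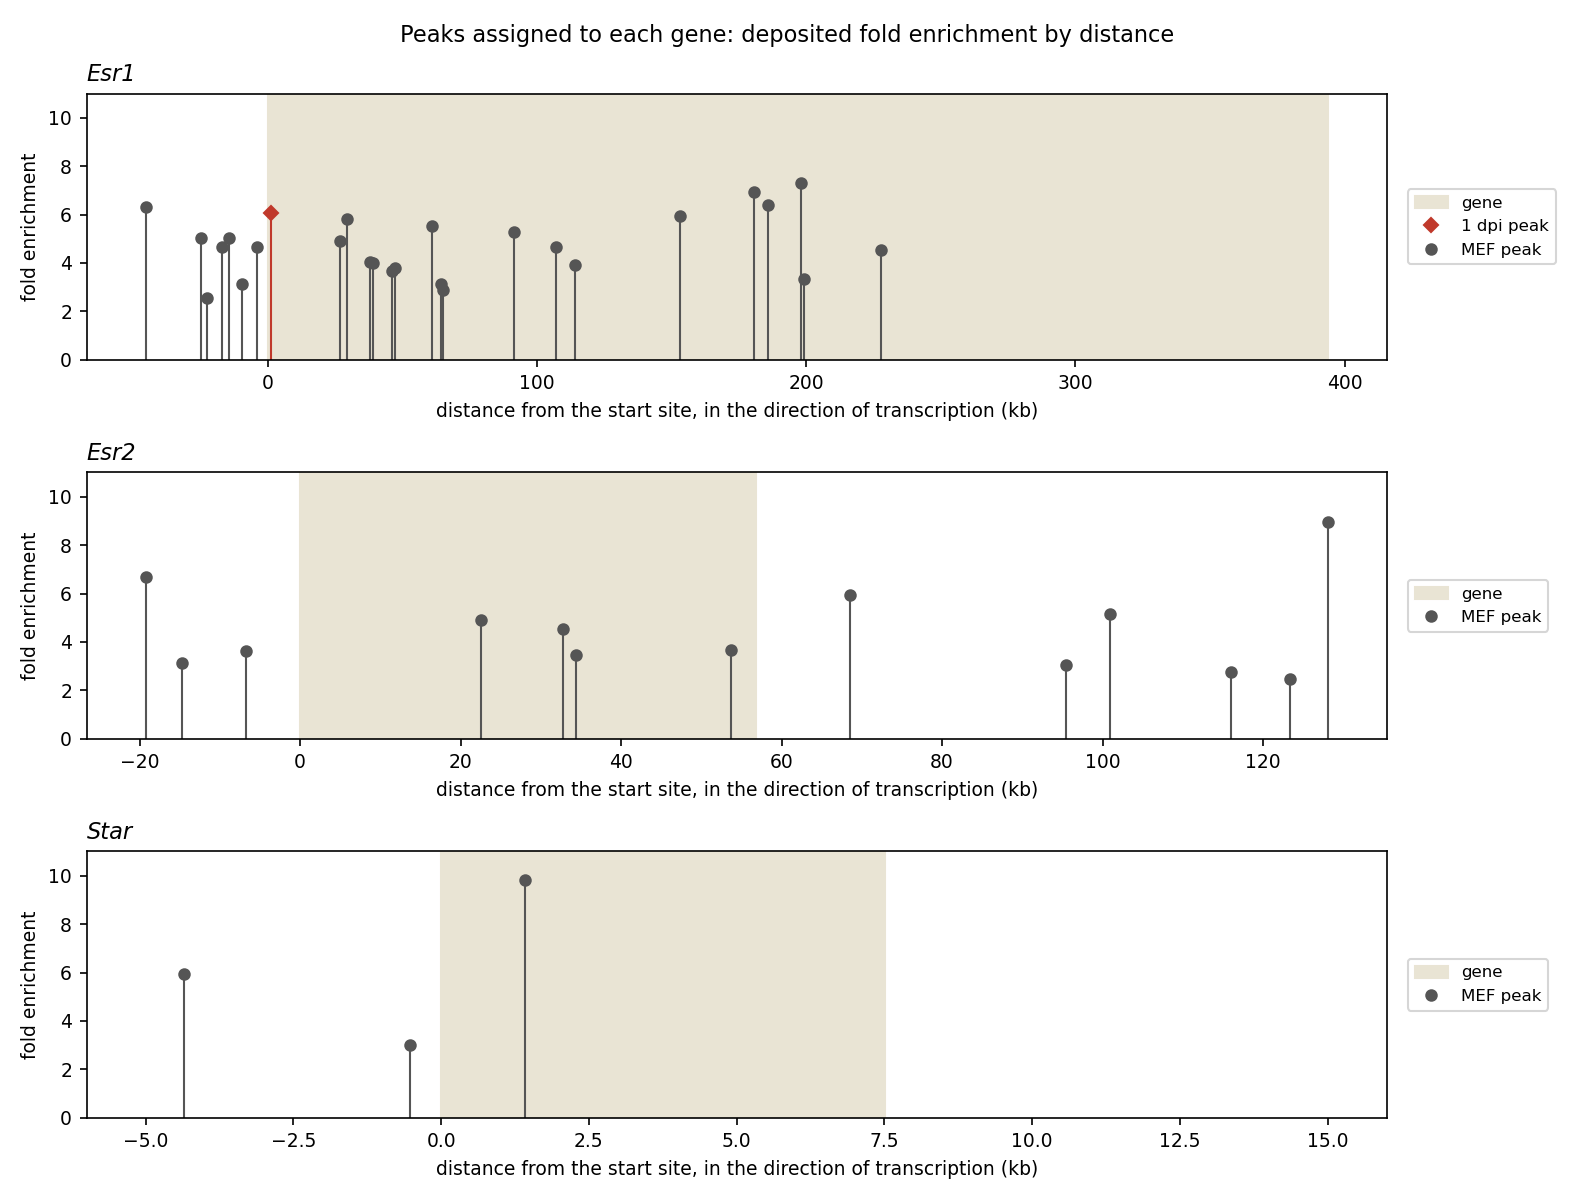
Fold enrichment deposited for each peak assigned to Esr1, Esr2 or Star (y axis) by the distance of its summit from the start site (x axis, kb), with the gene shaded. The diamond is the 1 dpi peak and circles are MEF peaks: Esr1 has 25 MEF peaks and none at the start site, where the 1 dpi peak stands at 6.07, and the strongest MEF peak of Star stands just inside the gene at 9.83.

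The genes most like each member were found by the distance between log2 ratios over the 5 comparisons, 0 where unlisted, among 13460 genes. Each gene was taken by its region of largest fold in each comparison, so the gains of Star at 3, 5 and 7 dpi and the loss of Esr2 at 5 dpi did not enter. Because all comparisons share the MEF library, this likeness is partly built in. Nearest to Esr1 were Lmo4, which encodes a LIM-domain transcription cofactor, and Rbm26, an RNA-binding protein gene, both at a distance of 0.115 with 16 reads at 1 dpi against 1 in MEFs. Next came the olfactory receptor gene Olfr948, at 0.308 with 14 reads at 1 dpi against 1. Esr1 had 52 reads at 1 dpi against 0, and its ratio rests on the 3 reads put in place of 0, so these distances rest on them too. At the region of largest fold, 751 genes had the directions of Esr1 in all 5 comparisons. Nearest to Esr2 were Sv2b, which encodes a synaptic vesicle protein, at 0.738, Ltv1 at 0.827 and Tmem79 at 0.844, and 6 genes had its directions at that region. These 3 were not listed with a loss at 5 dpi, as Esr2 was. Sv2b had 0 reads at 1 and 3 dpi against 15 in MEFs, and 14 at 5 dpi and 9 at 7 dpi against 0. Nearest to Star were the homeobox gene Cdx2 at 1.41, Olfr1020 at 1.54 and Use1 at 1.68, and 4266 genes had its directions at that region, gains beside it not counted. Cdx2 had 0, 2, 2 and 1 reads from 1 to 7 dpi and 1 read in primary neurons, against 63 in MEFs.

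Related genes were counted in 6 lists, and no test was made on them. Among 8 other steroid receptors and relatives, the estrogen-related receptor genes Esrra, Esrrb and Esrrg had a lost region in all 5 comparisons and the other 5 in none. That is 37.5% of the list, against 24.7% of all genes lost in all 5 and 34.1 to 36.8% lost in a given comparison. Esrra had 1 read at 3 dpi against 25 in MEFs (14.3-fold lower, 2.34 to 587). Esrrb had 1 read at 5 dpi against 40 in MEFs (22.9-fold lower, 3.87 to 925), and Esrrg had 1 in primary neurons against 27 in MEFs (15-fold lower, 2.47 to 614). Gains were listed for the progesterone receptor gene Pgr, with 9 reads at 5 dpi against 0 in MEFs, and for Esrrb at 7 dpi. The median log2 ratio of the list's lost regions was −2.25 to −3.47 by comparison, against −2.15 to −2.31 over all lost regions, with 0 reads held at 3 in both.

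The list of estrogen receptor coregulators held mostly genes whose proteins attach to the receptor and open or close chromatin. In it, 8 of 13 members had a lost region in each comparison. They were the same 8 genes, 61.5% of the list against 34.1 to 36.8% of all genes. Genes lost in all 5 comparisons made up 24.7% of all genes. Among the 8 were Ep300, Foxa1, Med1, Ncoa1, Ncoa2, Ncoa3 and Pelp1. Ncoa1, a steroid receptor coactivator, had 1 read at 1 dpi against 44 in MEFs (24.8-fold lower, 4.22 to 999.5). Med1, a Mediator subunit, had 1 at 3 dpi against 40 in MEFs, and the coactivator Ncoa3 had 1 in primary neurons against 31 in MEFs. Members with a gain numbered 3, 1, 2 and 0 from 1 to 7 dpi, with 0 for primary neurons, or 23.1, 7.69, 15.4, 0 and 0%, against 11.7, 10.9, 16.9, 7.44 and 7.43% of all genes. Med1 at 1 dpi, Ncoa1 at 3 dpi and Ncoa3 at 5 dpi had a gain beside their loss. The median log2 of lost regions was −2.03 to −2.81, against −2.15 to −2.31 over all lost regions.

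Known targets of estrogen receptors, mostly from human breast cells and rodent uterus, had 3 of 15 members with a lost region in each comparison, 20% of the list, below the 34.1 to 36.8% of all genes. These were Greb1, Igf1 and Myc each time, and genes lost in all 5 comparisons made up 24.7% of all genes. The median log2 of the list's lost regions was −2.08 to −2.81. Igf1, a growth factor gene, had 1 read in primary neurons against 45 in MEFs (25-fold lower, 4.26 to 1009). Greb1 had 3 reads at 1 dpi against 49 in MEFs (9.19-fold lower, 2.96 to 46.1). Members with a gain numbered 0, 2, 4 and 1 from 1 to 7 dpi, with 0 for primary neurons, or 0, 13.3, 26.7, 6.67 and 0%, against 11.7, 10.9, 16.9, 7.44 and 7.43% of all genes. Greb1 had a gain beside its loss at 5 dpi. Pdzk1, a scaffold protein gene, had 15 reads at 5 dpi and 0 in MEFs (at least 8.75-fold higher), and the growth factor gene Areg had 10 at 7 dpi and 0 in MEFs (at least 5.83-fold higher).

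Enzymes of steroid synthesis and turnover had lost regions in 12, 12, 11 and 9 of 22 members from 1 to 7 dpi, and for primary neurons in 12, 40.9 to 54.5% of the list against 34.1 to 36.8% of all genes. Fdx1, Hsd11b1, Hsd11b2, Hsd17b3, Hsd3b1, Hsd3b2, Srd5a1 and Sult1e1 had a lost region in all 5 comparisons. These were 36.4% of the list, against 24.7% of all genes. Hsd11b1 also had a gained region in all 5, with 20 reads at 1 dpi and 15 in primary neurons against 0 in MEFs, and Fdx1, Hsd11b2, Hsd3b2 and Srd5a1 had a gained region in 1 comparison each. Hsd17b3, whose enzyme makes testosterone, had 1 read at 1 dpi against 43 in MEFs (24.2-fold lower, 4.12 to 977). Hsd3b2 had 1 at 3 dpi against 39 in MEFs (22.3-fold lower, 3.77 to 903), and the estrogen sulfotransferase gene Sult1e1 had 1 at 5 dpi against 35 in MEFs (20-fold lower, 3.36 to 812). Gained regions were listed for 7, 4, 5 and 3 members from 1 to 7 dpi and for 6 in primary neurons, or 31.8, 18.2, 22.7, 13.6 and 27.3%, against 11.7, 10.9, 16.9, 7.44 and 7.43% of all genes, with no test of the difference. Cyp19a1, the aromatase that turns androgens into estrogens, had a gain of 9 reads against 0 in MEFs at 3 dpi and in primary neurons. It also had a lost region, with 0 reads against 18 in MEFs, at 1 dpi and in primary neurons. Cyp21a1 had gains alone, at 1 and 5 dpi and in primary neurons. Hsd17b2, whose enzyme inactivates estradiol, had 14 reads at 7 dpi against 1 in MEFs (24.5-fold higher, 3.73 to 1036). Cyp11a1, whose enzyme acts on the cholesterol that Star delivers, was lost in primary neurons and at 3 and 5 dpi. The Hsd3b and Cyp11b genes have close copies, and the sources used here do not give how reads matching several copies were counted. The median log2 was −2.11 to −2.89 over the lost and 2.43 to 3.03 over the gained regions, against 2.54 to 2.68 over all gained regions.

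Genes of cholesterol supply and relatives of Star with the same lipid-binding fold had 8, 7, 8 and 8 of 13 members with a lost region from 1 to 7 dpi, and 7 for primary neurons, 53.8 to 61.5% against 34.1 to 36.8% of all genes. Among those lost in all 5 comparisons, as Star was, were Scarb1, Soat1, Stard3, Stard4, Stard5 and Tspo. Members lost in all 5 made up 53.8% of the list, against 24.7% of all genes. Stard3 at 3 dpi, Soat1 at 5 dpi and Scarb1 in primary neurons had a gain beside their loss. Tspo, a cholesterol-binding protein of the outer mitochondrial membrane, had 1 read at 7 dpi against 44 in MEFs (25.1-fold lower, 4.28 to 1015). Stard4 had 1 at 1 dpi against 36 in MEFs (20.2-fold lower, 3.41 to 822), and Stard3 had 1 at 7 dpi against 31 in MEFs (17.7-fold lower, 2.95 to 722). The median log2 of lost regions in this list was −2.55 to −3.36. Gains were listed for 1, 2, 4 and 1 members and for 2 in primary neurons, or 7.69, 15.4, 30.8, 7.69 and 15.4%, against 11.7, 10.9, 16.9, 7.44 and 7.43% of all genes. Vdac1, a channel of the outer mitochondrial membrane, had 11 reads at 5 dpi against 1 in MEFs (19.2-fold higher, 2.80 to 829).

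The list of regulators of Star included pituitary hormone receptors and transcription factors. Lost regions were listed for 5, 4, 5 and 5 of 15 members from 1 to 7 dpi, and for 3 in primary neurons. That was 20 to 33.3%, against 34.1 to 36.8% of all genes. At 1, 5 and 7 dpi the 33.3% was near the share of all genes. Gata6, Nr5a2 and Srebf2 had a lost region in all 5 comparisons, and each had a gained region too in at least 1. These 3 were 20% of the list, against 24.7% of all genes lost in all 5. Gata6 had 1 read at 3 dpi against 36 in MEFs (20.6-fold lower, 3.46 to 835), Srebf2 had 1 at 1 dpi against 36 in MEFs (20.2-fold lower, 3.41 to 822), and Nr5a2 had 2 at 7 dpi against 28 in MEFs (8-fold lower, 2.02 to 69.3). Gains were listed for 3, 2, 1 and 0 members and for 1 in primary neurons, or 20, 13.3, 6.67, 0 and 6.67%, against 11.7, 10.9, 16.9, 7.44 and 7.43% of all genes. The ACTH receptor gene Mc2r had 11 reads at 3 dpi and 0 in MEFs (at least 6.42-fold higher). Another region of Mc2r was lost at 1, 3, 5 and 7 dpi, with 0 reads against 19 in MEFs. Nr5a1, the nuclear receptor known best as an activator of Star, was in none of the promoter lists. The median log2 of lost regions was −2.36 to −2.96.

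**Figure D5:**
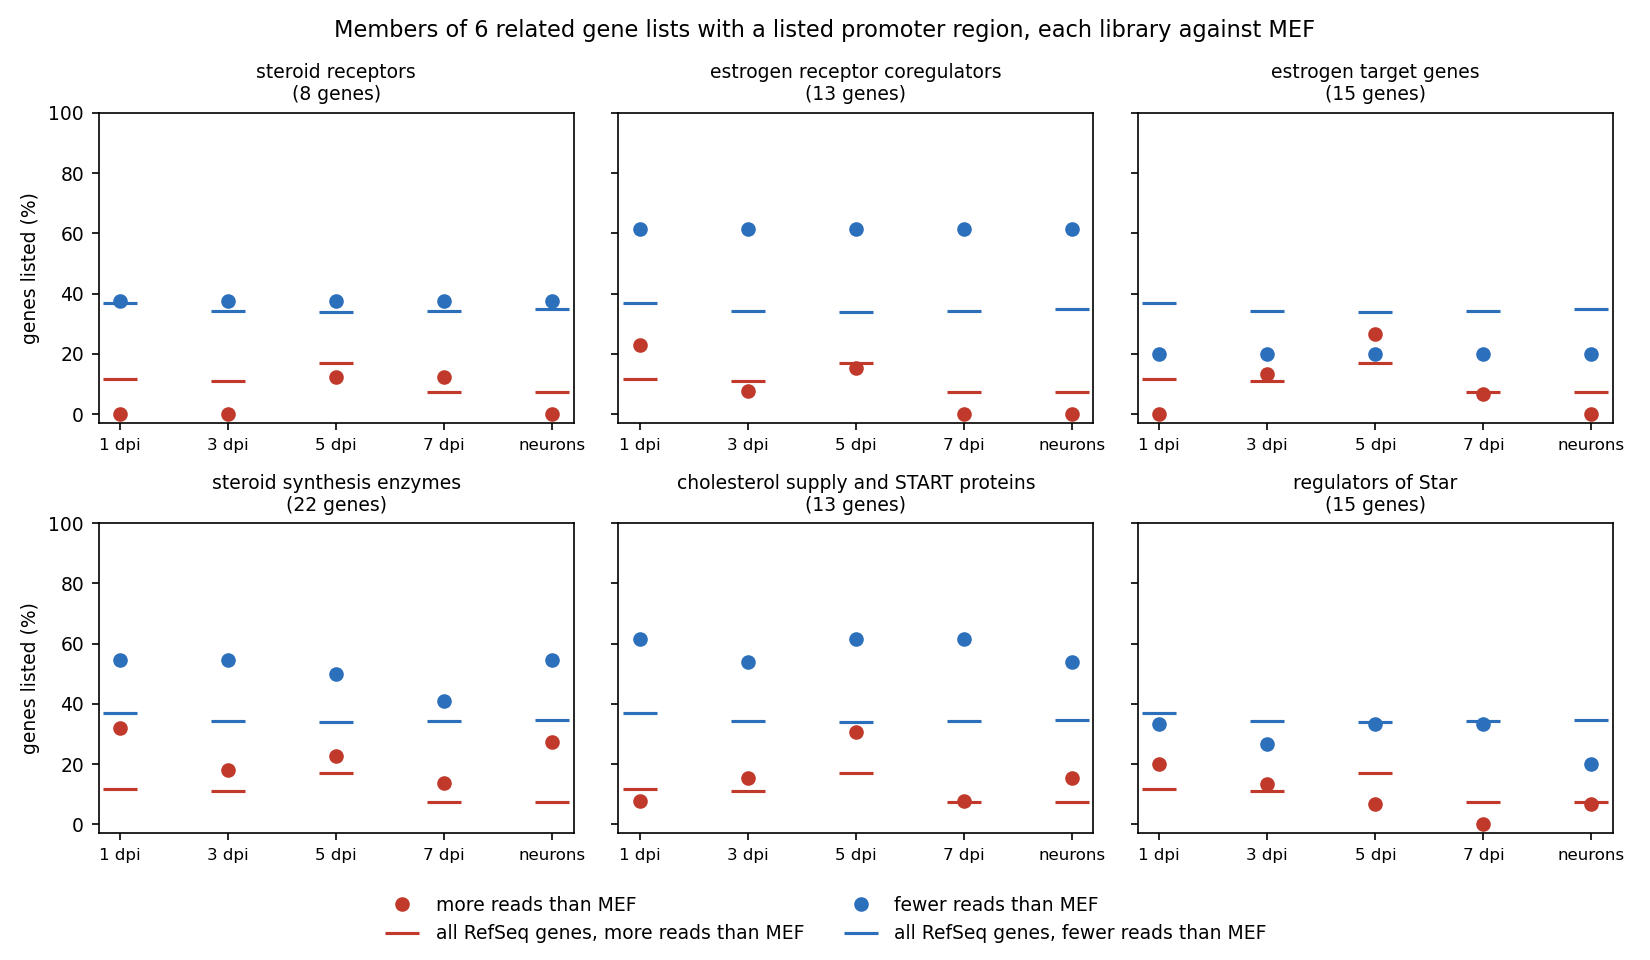
Percent of genes in each of 6 related gene lists (y axis) with a listed promoter region in each library against MEF (x axis). Red points are regions with more reads than MEF and blue points regions with fewer. The short lines are the same shares over all RefSeq genes. The coregulator and cholesterol lists stand at 53.8 to 61.5% lost. The estrogen targets stand at 20%, below the line. The regulators of Star stand at 20 to 33.3%, near the line at 1, 5 and 7 dpi. The steroid synthesis list lies above the line in both directions.

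Peaks outside MEFs were assigned to few of these genes. Esrrg had 1 in the gene body at 1 dpi, 118 kb downstream of its start site, with 43 tags and 7.79-fold enrichment, and Pgr had 1 at 3 dpi, 138 kb upstream, with 53 tags and 8.61-fold enrichment. Neither met a MEF peak. Pdzk1 had peaks in its body in all 5 libraries, with fold enrichments of at most 6.55, 15.3, 7.39 and 12.3 from 1 to 7 dpi and 6.61 in primary neurons, and all of them met MEF peaks. In MEFs, where 75.6% of all genes had a peak, every member of the receptor, coregulator, target and cholesterol lists had one, as did 21 of 22 steroid synthesis genes and 14 of 15 regulators of Star.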

How the data were processed

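hMeDIP-seq of 6 mouse libraries, 1 per group, was analysed from 10 promoter lists and 6 peak lists. Groups came from titles and source names, and columns were tied to libraries by the codes in their headers. The labels of the 3, 5 and 7 dpi samples name the primary neurons' code for a gain list; the headers were followed. CASAVA and Bowtie2 2.1.0 were used on mm10, per the submitters' processing notes. Not given in the sources used here are the peak caller, differential caller, multi-mapping rule and inputs.

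The promoter signal that the authors deposited is whole reads scaled by a factor of each library; dividing by that factor, read off the values, gave whole numbers within 0.1 for 100% of them. No count model was fitted. The log2 ratio, p-value and q-value of each region are the authors' deposited ones, from 1 library against 1. Fold enrichment, a ratio, and summit tag counts of peaks were also deposited, and the peak lists' q-value column, which exceeded 1, was taken to be −log10 q. Library totals are unknown, so reads per region are the depth known.

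Ratios, exact 95% Poisson or conditional intervals, distances and overlaps (at least 1 bp) came from scipy 1.17.1, numpy 2.4.6 and pandas 2.3.3 under python 3.11.15, with matplotlib 3.10.9 for figures, and were tested on simulated data. Reads carry no molecular identifiers that the sources used here mention. Gene identifiers were matched to RefSeq on GRCm38.p6 (15455 of 15527), whose 26220 genes gave the background shares. The lists were steroid receptors, estrogen receptor coregulators, estrogen target genes, steroid synthesis enzymes (1 of 23, Sts, had no match), cholesterol supply and START proteins, regulators of Star, and neuron, fibroblast and astrocyte markers. Named genes were the 3 members, up to 4 per list with the largest fold, those lost in all 5 comparisons, the 3 most alike to each member (without predicted genes), and fold neighbours. Cyp11a1, Cyp19a1, Cyp21a1 and Nr5a1, and the genes named for peaks outside MEFs, were chosen after their values were seen. The members and lists were chosen with earlier results of these data known. Some genes that the rule names are not reported here. Alternatives covered the floor, scaling, sums over regions, p, read and enrichment limits, overlap and likeness.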

Additional observations from a re-analysis of the deposited data

Results flagged for a closer look

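Overlapping regions in the upstream part of the Star promoter were listed in opposite directions. The region with more reads than MEFs at 3 dpi overlapped by 180 bp the region with fewer reads than MEFs at 1 dpi, and by the same 180 bp those at 7 dpi and in primary neurons. The gained region had 9 reads at 3 dpi against 0 in MEFs, and the lost one 1 read at 1 and 7 dpi and in primary neurons against 23 in MEFs. The shorter lost region of 3 dpi, which ended where the gain began, also held 23 MEF reads. The listings thus do not show the shared 180 bp changing direction. The difference between days was not tested, since each is 1 library.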

How the results depend on the processing

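Ratios are reads of the other library over MEF reads. With 0 reads held at 1 instead of 3, Esr1 at 1 dpi stood at 92.4 instead of 30.8 and Star at 1 dpi at 0.0231 instead of 0.0693; without scaling they stood at 17.3 and 0.0390. Summed over all listed regions of Star, the ratio was 0.0178, 0.210, 0.614 and 0.262 at 1, 3, 5 and 7 dpi, against 0.0693, 0.0455, 0.0227 and 0.0227 for the main region. At 3, 5 and 7 dpi the sum takes in gains, and at 1 dpi, which has none, the upstream loss adds 1 read, so that 0 is no longer held at 3. The same sum turned Esr2 at 5 dpi to 0.875, from 5.25 for its gain alone. With the deposited p below 1e-05, 4 of 7 gains and 5 of 12 losses were left, and with at least 15 reads 1 gain, that of Esr1. Fold enrichment of at least 5 left 10 MEF peaks of Esr1 and 4 of Esr2. At 10 or more, 0 were left for Esr1 in MEFs and at 1 dpi, 0 for Esr2 and 0 for Star. Counting only peaks in the gene or its promoter left 4 for Esr2. The other 17 values of these results stayed within counting error or 1.5 times. Beside them, 20 values of the Esr2 ratios and the related lists moved, none of them turning; with p below 1e-05, for example, losses of steroid synthesis genes summed over the 5 comparisons numbered 37 instead of 56 and gains 12 instead of 25. No paired analysis was possible because each group has 1 library and the labels give no replicate number. Regions of 9 to 18 reads, as in Esr2, limit what can be said of it, and leaving out a library was not possible.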
